A study of Mus musculus with 18 samples.

Results

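The libraries labelled Neo, neonatal satellite cells, were compared with those labelled Fet, fetal myoblasts, across all expressed genes of bulk RNA sequencing in mouse. The members were chosen by their labels alone: 3 Neo and 3 Fet libraries, 6 of the 18 samples of the series. Both groups carry the label of mouse myogenic progenitors and were freshly sorted before RNA extraction. The Neo cells came from hindlimb muscles at postnatal day 3 of the strain labelled Pax7-ZsGreen, a fluorescent reporter of the gene Pax7. The Fet cells came from the E14.5 fetus of the strain labelled My5Cre Rosa26YFP, spelled so in the labels, in which Cre switches on YFP and keeps it on in all descendants of a cell that once expressed the recombinase. The Cre driver is given only in that spelling. The labels name neither the region of the fetus nor the surface markers used in the sort of either group. Stage, strain and reporter changed together between the groups and cannot be told apart, and body region and sort may have differed too. The study used both groups as developmental yardsticks for progenitors made from pluripotent stem cells, and embryonic myoblasts of E10.5 (Emb, 3 libraries) were another.

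Skeletal muscle grows from progenitors that carry the paired-box transcription factors Pax3 and Pax7 and turn on Myf5, Myod1 and Myog as they commit and fuse into fibres. Fetal myoblasts build the secondary fibres of the body before birth. Satellite cells are the Pax7-expressing cells that settle under the basement membrane of the fibre, add nuclei to it after birth, slow their division and later become the quiescent stem cells of adult muscle.

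Total counts were 16917199, 6923705 and 3557117 in the Neo libraries and 516504, 32017618 and 13487821 in the Fet libraries, so Fet replicate 1 was the shallowest of the 6 with the largest counting error. Normalised read counts below are CPM, counts scaled to a common library size with TMM factors, listed for replicates 1, 2 and 3. The top 20 genes held 17.9 to 19.9% of the reads in Neo and 10.6 to 12.4% in Fet, and mitochondrially encoded genes took 6.62 to 11% in Neo and 3.56 to 5.96% in Fet. Counts of replicates differed by more than counting error, with a chi-square per degree of freedom of 51.5 to 114 in Neo and 8.27 to 36.1 in Fet. The Y-linked helicase gene Ddx3y stood at 194, 359 and 114 CPM in Neo libraries, against 1.73, 0.213 and 0.143 CPM in Fet libraries, while Xist, the RNA of the silenced X chromosome, was present in both at 673, 489 and 1305 CPM in Neo libraries, against 1281, 1646 and 1750 CPM in Fet libraries. Y-linked RNA was thus abundant in Neo and close to absent in Fet, and the sex of the animals and the group cannot be told apart. Nothing in the labels says whether replicates came from separate animals, so a p-value here reflects only variation among libraries, part of which may be technical. That variation was estimated from all 15 bulk libraries together, including Emb and the stem-cell-derived groups, and not from Neo and Fet alone.

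Of 17571 genes tested, 416 passed edgeR's quasi-likelihood test at an adjusted p of 0.05, which is 2.37% of them. Of these, 240 were higher in Neo (1.37%) and 176 were lower (1.0%), and 412 changed at least 2-fold. All 240 higher genes and 166 of the 176 lower ones had no overlap between the 3 Neo and the 3 Fet values. Over all tested genes, 2227 (12.7%) lay wholly above Fet in Neo and 2682 (15.3%) wholly below. The median log2 fold change over all tested genes was -0.14. With RLE size factors in place of TMM it was -0.04, a shift of 0.104, and the fold changes below carry that uncertainty of scale. The count of calls depended on single libraries, also on 1 outside Neo and Fet. Without iPax7 replicate 1, a stem-cell-derived library, the count of calls was 751. It was 86 without Fet replicate 2, 131 without Fet replicate 3, 161 without Neo replicate 2, 183 without Neo replicate 1, 241 without Fet replicate 1 and 337 without Neo replicate 3. It was 1246 in a fit of the 6 libraries alone (901 higher, 345 lower) and 1876 in DESeq2 (879 higher, 997 lower), so the share of higher genes was 57.7% in the first fit, 72.3% in the 6 libraries alone and 46.9% in DESeq2. The called genes that kept their call under every one of the 16 alternative settings numbered 67, of which 54 were higher and 13 lower. A value with ± is a log2 fold change, Neo minus Fet, and its standard error derived from the F statistic, with 3 libraries in each group.

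**Figure D1:**
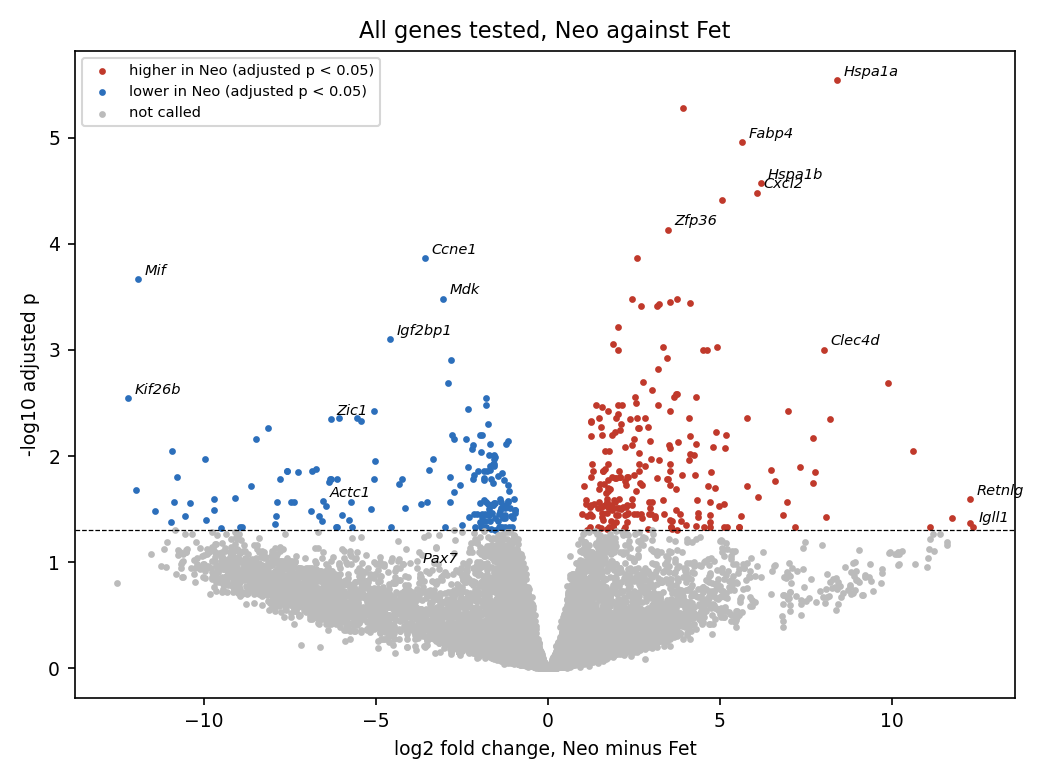
Log2 fold change (Neo minus Fet, x axis) against the negative log10 of the adjusted p (y axis) for the 17571 genes tested, 1 point per gene, with the dashed line at an adjusted p of 0.05. Genes called higher in Neo number 240 and genes called lower 176, and Hspa1a and Fabp4 on one side and Ccne1 and Mdk on the other stand above the line, while Pax7 stays under it.

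Of the defining muscle genes, Pax7, Myf5, Myod1 and Myog were lower in every Neo library, but none of these differences passed the test. Pax7 (ENSMUSG00000028736, chromosome 4, 139737062 to 139833528, GRCm38), the gene behind the Neo reporter and the defining marker of satellite cells, stood at 0.495, 4.08 and 5.12 CPM in Neo libraries, against 55.3, 43.4 and 32.6 CPM in Fet libraries. Every Neo value lay below every Fet value, but the difference did not pass the test (log2 fold change -3.81 ± 1.23, adjusted p = 0.112). It did pass in a fit of the 6 libraries alone (adjusted p = 0.0147) and without iPax7 replicate 1, a stem-cell-derived library that shared the estimate of spread (0.00387), and in DESeq2 (0.019). Pax7 was called in 5 of the 16 alternatives. It was not called whichever of the 6 libraries was left out (adjusted p = 0.138 to 0.258). Pax3, its embryonic paralog, stood at 0.424, 0 and 3.91 CPM in Neo libraries, against 1.73, 6.701 and 6.27 CPM in Fet libraries, and the groups overlapped.

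The determination factor Myf5 stood at 2.405, 0.816 and 6.32 CPM in Neo libraries, against 10.4, 9.81 and 7.91 CPM in Fet libraries, and Myod1, which commits cells to muscle, at 15.3, 12.4 and 4.81 CPM in Neo libraries, against 84.7, 31.7 and 30.02 CPM in Fet libraries. Myog, which drives differentiation and fusion, stood at 104, 212 and 86.7 CPM in Neo libraries, against 622, 310.4 and 387 CPM in Fet libraries. For each of these 3 genes all Neo values were below all Fet values, yet none passed the test (adjusted p = 0.417, 0.439 and 0.467). The summed level of 24 myogenic regulators was 1138, 1200 and 1276 CPM in Neo libraries, against 1836, 1250 and 1271 CPM in Fet libraries. The groups overlapped in that sum. In the list 12 genes lay wholly below Fet and 2 wholly above, beside 15.3% and 12.7% of all genes tested. Of the 24, 1 passed, beside 2.37% of all genes tested, with a list median of -1.59 against -0.14 over all genes. That 1 was Sim1, a transcription factor of migrating limb muscle progenitors, at 0.0707, 0 and 0 CPM in Neo libraries, against 12.1, 17.7 and 16.8 CPM in Fet libraries (log2 fold change -8.5 ± 1.52, adjusted p = 0.00691). Sim1 was close to 0 in all Neo libraries, and it kept the call with any 1 of the 6 libraries left out. Mymx, a small membrane protein needed for myoblast fusion, was at 0 counts in all 3 Neo libraries and at 12.1, 8.04 and 5.49 CPM in Fet libraries, and was not called (adjusted p = 0.0753).

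Among 26 satellite cell markers the picture was mixed, with 2 called higher, beside 1.37% of all genes tested, and a median of -0.23. The muscle cadherin gene Cdh15 stood at 1.06, 36.4 and 3.31 CPM in Neo libraries, against 83, 52.7 and 40.9 CPM in Fet libraries, so 1 Neo library approached the Fet range while the others stayed far under it, with no call (adjusted p = 0.422). The adhesion receptor Vcam1 stood at 110.1, 100 and 92.7 CPM in Neo libraries, against 124, 240.1 and 174 CPM in Fet libraries, below Fet in each Neo library and not called (adjusted p = 0.475). Itga7, the laminin receptor subunit of muscle, overlapped, at 6.51, 26.9 and 46.3 CPM in Neo libraries, against 39.8, 27.6 and 21.96 CPM in Fet libraries. The 2 called markers are also made outside muscle. The caveolae protein gene Cav1 stood at 1176, 1178 and 1743 CPM in Neo libraries, against 84.7, 114 and 152 CPM in Fet libraries (log2 fold change 3.54 ± 0.43, adjusted p = 0.000357). The membrane proteoglycan gene Sdc4 was higher as well (log2 fold change 2.62 ± 0.45, adjusted p = 0.00546). Sdc4 was not called without Fet replicate 2 or 3 (adjusted p = 0.0503 to 0.0529). With Pax7 under 6 CPM in every Neo library, the labelled cell type is at odds with its defining marker, and the samples are called the Neo libraries here. The summed level of the 26 markers was 4857, 4437 and 6015 CPM in Neo libraries, against 3268, 3091 and 2805 CPM in Fet libraries. That sum includes Cav1 at the levels given above. Of the 26 markers 8 lay wholly above Fet and 9 wholly below, beside 12.7% and 15.3% of all genes tested.

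**Figure D2:**
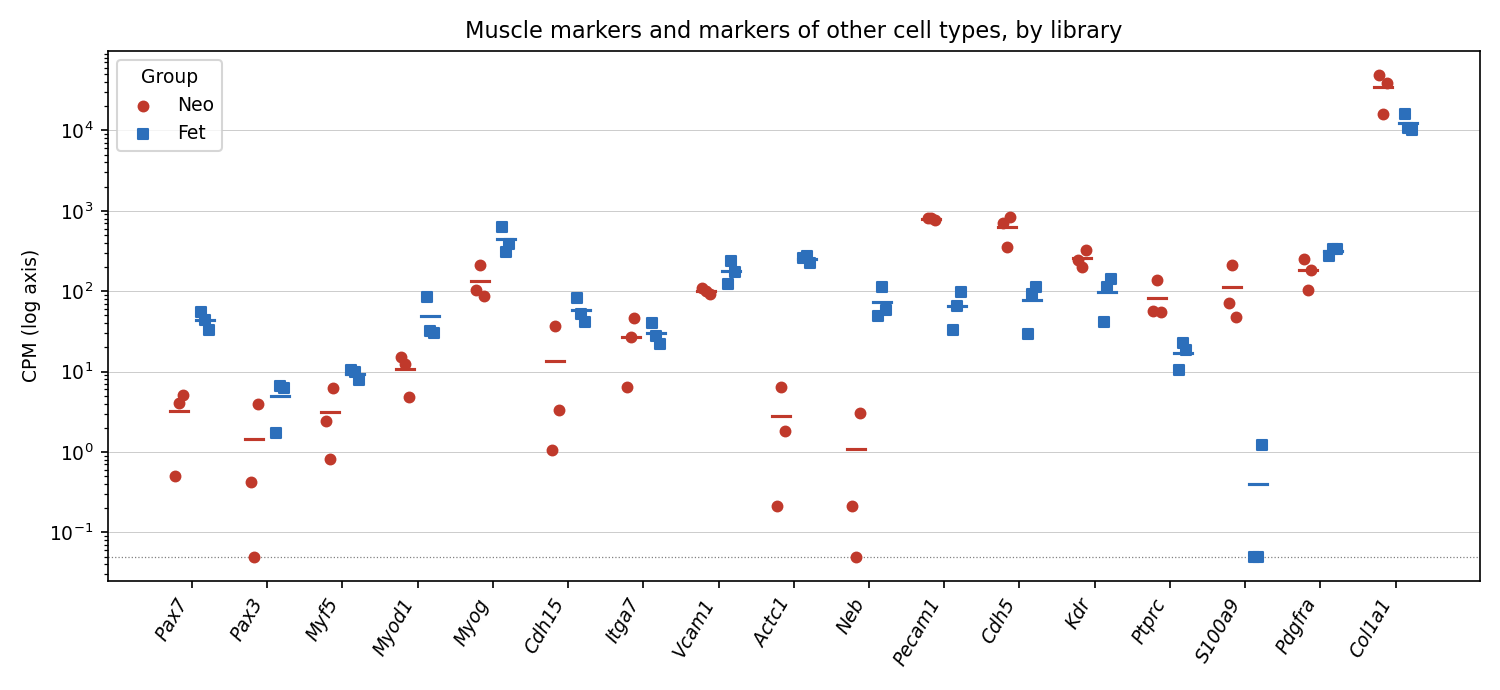
CPM (log axis) of muscle genes, from Pax7 to Neb, and of markers of other cell types, from Pecam1 to Col1a1, with 1 point per library, Neo circles left of Fet squares and a line at each group mean. Values under 0.05, 0 included, are drawn at the dotted line at 0.05 CPM. Pax7, Myog and Actc1 lie lower in Neo, and the endothelial genes Pecam1 and Cdh5 lie higher in all 3 Neo libraries.

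Markers of other cell types differed at the same time. The summed level of 30 endothelial markers, genes of the vessel lining, was 8074, 6951 and 8333 CPM in Neo libraries, against 522, 878 and 1110 CPM in Fet libraries. Of the 30, 26 lay wholly above Fet, beside 12.7% of all genes tested. The junction gene Pecam1 stood at 813, 813 and 761 CPM in Neo libraries, against 32.9, 64.8 and 98.6 CPM in Fet libraries, and the vascular receptor gene Kdr at 243, 202 and 325 CPM in Neo libraries, against 41.5, 111 and 141 CPM in Fet libraries. Neither passed the test (adjusted p = 0.178 and 0.625). Pecam1 did pass in a fit of the 6 libraries alone (0.000211) and without iPax7 replicate 1 (0.0173). It was called in 4 of the 15 alternatives that gave it a value. It was not called whichever of the 6 libraries was left out (adjusted p = 0.177 to 0.392). In these bulk libraries fewer cells of a type and less RNA per cell cannot be told apart.

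The endothelial list of 30 had 5 called genes, all higher, beside 1.37% of all genes tested. Fabp4 (ENSMUSG00000062515, chromosome 3, 10204088 to 10208576), a fatty acid carrier of capillary endothelium and fat cells, stood at 3334, 2392 and 2343 CPM in Neo libraries, against 29.4, 56.8 and 71.2 CPM in Fet libraries (log2 fold change 5.64 ± 0.48, adjusted p = 1.1e-05). The lowest Neo value was far above the highest Fet value. Cdh5, the cadherin of endothelial junctions, stood at 706, 357 and 839.5 CPM in Neo libraries, against 29.4, 91.2 and 111 CPM in Fet libraries (log2 fold change 3.0 ± 0.7, adjusted p = 0.0352). Vwf, the clotting carrier protein stored by endothelium, rose by 4.34 ± 0.95. Cd93 and Ly6c1 also rose. Cdh5, Cd93 and Ly6c1 were not called whichever of the 6 libraries was left out (adjusted p = 0.056 to 0.195). Vwf was not called without Neo replicate 2 or 3 or Fet replicate 1 or 2 or 3 (adjusted p = 0.0563 to 0.137). Calls were also lost for Cdh5, Vwf and Cd93 with no low-count filter (adjusted p = 0.101 to 0.163) and Ly6c1 with mitochondrially encoded genes left out (0.0529). Of the list, 21 genes were called in the fit of the 6 libraries alone and 11 in DESeq2. Selectins of activated endothelium, outside the list, were higher too. The leukocyte-binding lectin gene Selp stood at 79.4, 144 and 82.2 CPM in Neo libraries, against 0, 0.518 and 0.856 CPM in Fet libraries (log2 fold change 7.32 ± 1.4, adjusted p = 0.0128), and its relative Sele at 244, 379 and 358 CPM in Neo libraries, against 6.92, 0.975 and 4.63 CPM in Fet libraries (log2 fold change 6.61 ± 1.34, adjusted p = 0.017). Both were under 7 CPM in every Fet library. Sele was not called without Neo replicate 2 or Fet replicate 1 or 2 or 3 (adjusted p = 0.0513 to 0.122). Selp was not called without Fet replicate 2 or 3 (adjusted p = 0.0832 to 0.111). Other settings ended the call of Selp and Sele with no low-count filter (adjusted p = 0.066 to 0.0885).

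Several blood cell genes were also higher. The summed level of 29 neutrophil and myeloid markers was 736, 1861 and 429 CPM in Neo libraries, against 144, 286 and 185 CPM in Fet libraries, and that of 12 lymphoid markers was 32.1, 254 and 192 CPM in Neo libraries, against 12.1, 8.10 and 13.0 CPM in Fet libraries. Clec4d (ENSMUSG00000030144, chromosome 6, 123262111 to 123275265), a lectin receptor of myeloid cells, stood at 142, 349 and 59.3 CPM in Neo libraries, against 3.46, 0.731 and 0.214 CPM in Fet libraries (log2 fold change 8.02 ± 1.1, adjusted p = 0.000994) and kept its call under all 16 settings. The neutrophil granule genes Mmp8, S100a9, Ngp and Retnlg were called higher. Mmp8, a collagenase, stood at 59.3, 313 and 27.7 CPM in Neo libraries, against 0, 0.335 and 0.642 CPM in Fet libraries. Retnlg had 0 counts in all Fet libraries and 13.6, 62.2 and 9.03 CPM in Neo libraries, at least 447-fold higher against a floor of 3 counts over the group. Igll1, a chain of the pre-B cell receptor, was likewise at 0 in Fet and at 14.4, 59.4 and 15.9 CPM in Neo, at least 473-fold higher. Hemgn, of red cell precursors, was at 0 in Fet and at 19.1, 14.4 and 51.5 CPM in Neo, at least 448-fold higher. Neo replicate 2 held the most of Mmp8, Retnlg and Igll1, and Neo replicate 3 the most of Hemgn. Ngp, Igll1 and Hemgn were not called whichever of the 6 libraries was left out (adjusted p = 0.0657 to 0.216). Retnlg and Trem1 were not called without Neo replicate 2 or Fet replicate 1 or 2 or 3 (adjusted p = 0.0525 to 0.162). S100a9 was not called without Neo replicate 1 or 2 or Fet replicate 1 (adjusted p = 0.0501 to 0.118). Mmp8 was not called without Neo replicate 2 or Fet replicate 2 (adjusted p = 0.0518 to 0.0771). Further calls did not hold for Ngp with mitochondrially encoded genes left out (adjusted p = 0.0513) and Hemgn in DESeq2 (0.195). The fold change of S100a9 was 7.71 ± 1.49 with all libraries and 14.3 without Fet replicate 3. Trem1, an activating receptor of neutrophils, stood at 30.6, 176 and 24.97 CPM in Neo libraries, against 0, 0.579 and 0.143 CPM in Fet libraries.

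The pan-leukocyte phosphatase gene Ptprc stood at 56.95, 137 and 55.7 CPM in Neo libraries, against 10.4, 22.5 and 18.3 CPM in Fet libraries, apart but not called (adjusted p = 0.142). Of 23 antigen presentation genes, the class I heavy chain genes H2-D1 and H2-K1 were called higher, with a list median of 2.99. Over all genes tested 1.37% were called higher. H2-K1 stood at 191, 212 and 169 CPM in Neo libraries, against 5.19, 12.8 and 3.49 CPM in Fet libraries. Reads of class I genes can be split between near-identical copies, so each of these values is uncertain. Of 34 interferon response genes, 3 rose: the transcription factor Irf1 (3.56 ± 0.75), the guanylate-binding Gbp3 (4.96 ± 1.14) and the antiviral membrane protein Ifitm3 (4.52 ± 1.14). Irf1 and Ifitm3 were not called whichever of the 6 libraries was left out (adjusted p = 0.0502 to 0.195). H2-K1 and Gbp3 were not called without Neo replicate 1 or 2 or Fet replicate 1 or 2 or 3 (adjusted p = 0.0598 to 0.171). H2-D1 was not called without Fet replicate 2 or 3 (adjusted p = 0.0759 to 0.0777). The call also ended for Gbp3 with no low-count filter (adjusted p = 0.0644) and Ifitm3 with mitochondrially encoded genes left out (0.0514).

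**Figure D3:**
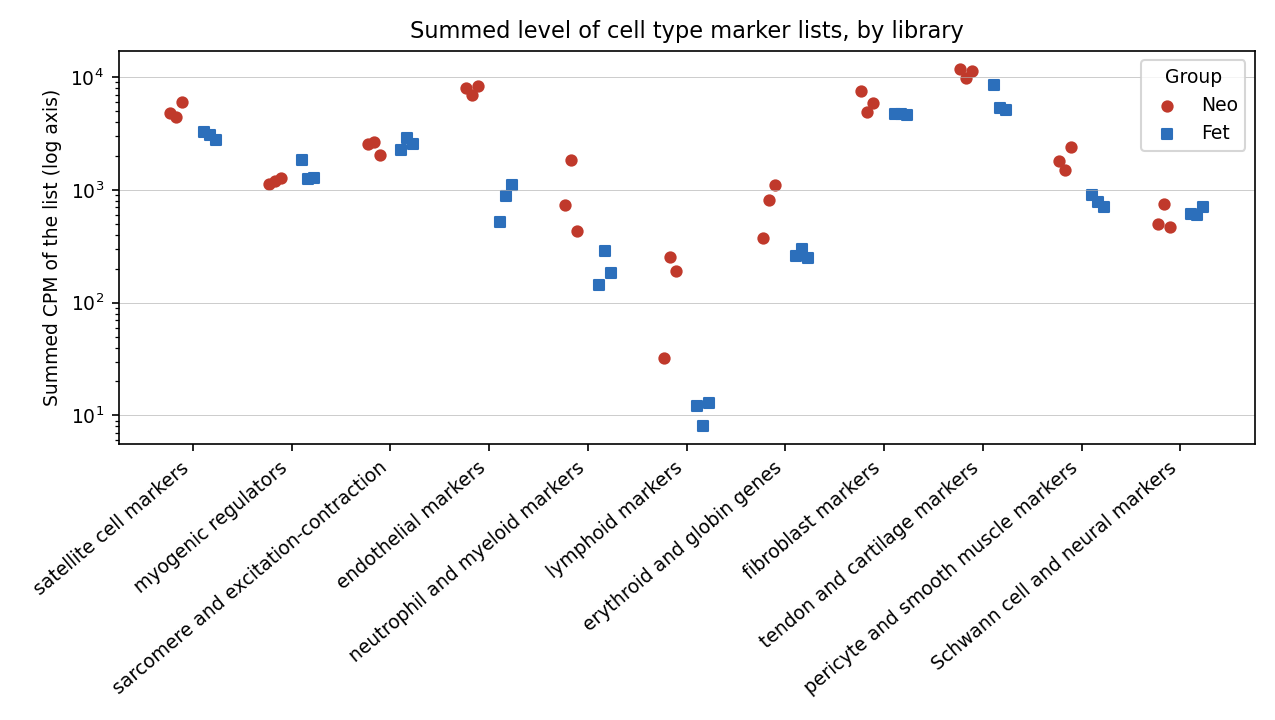
Summed CPM (log axis) of 11 cell type marker lists, with 1 point per library and Neo circles left of Fet squares. The endothelial, neutrophil and myeloid, lymphoid, erythroid, fibroblast, tendon and cartilage, and pericyte and smooth muscle sums lie higher in every Neo library. So does the sum of satellite cell markers, while the sums of myogenic regulators, sarcomere genes and Schwann cell and neural markers overlap.

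Immediate early genes, which cells switch on within minutes of a stimulus or of handling, were higher in Neo as a group. All 35 tested lay wholly above Fet in Neo, beside 12.7% of all genes tested. Of the 35, 19 passed the test, beside 2.37% of all genes tested, none of them lower, and the list median was 2.72. With 1 library left out the count of calls was 11 to 16, lowest without Fet replicate 2 or 3. Zfp36 (ENSMUSG00000044786, chromosome 7, 28376784 to 28380253), which speeds the decay of inflammatory mRNAs, stood at 2039, 1591 and 2270 CPM in Neo libraries, against 261, 115 and 150 CPM in Fet libraries (log2 fold change 3.5 ± 0.36, adjusted p = 7.37e-05). The Neo and Fet values did not overlap. Atf3, a stress transcription factor, stood at 336, 269.9 and 208 CPM in Neo libraries, against 5.19, 15.9 and 11.98 CPM in Fet libraries (log2 fold change 4.52 ± 0.62, adjusted p = 0.000994). Dusp1, a phosphatase that switches off MAP kinases, stood at 900.2, 906 and 903 CPM in Neo libraries, against 89.9, 57.8 and 59.6 CPM in Fet libraries (log2 fold change 3.73 ± 0.57, adjusted p = 0.00261), nearly level among the Neo libraries. Junb, a partner in the AP-1 factor, rose by 2.76 ± 0.41, the matricellular Ccn1 by 3.23 ± 0.4 and the stress gene Gadd45b by 3.56 ± 0.58 on the log2 scale. Zfp36, Atf3, Dusp1, Junb, Ccn1 and Gadd45b kept their calls under all 16 settings.

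Fos and Jun form the core of AP-1. Fos stood at 6437, 6500 and 4631 CPM in Neo libraries, against 1617, 1062 and 1051 CPM in Fet libraries (log2 fold change 2.24 ± 0.47, adjusted p = 0.017). Jun stood at 1831, 1565 and 1270 CPM in Neo libraries, against 266, 402 and 317 CPM in Fet libraries (log2 fold change 2.24 ± 0.41, adjusted p = 0.00827). Each was several times higher in every Neo library. Egr1, an early growth response factor, also rose (log2 fold change 1.89 ± 0.48, adjusted p = 0.0464). Egr1 was not called whichever of the 6 libraries was left out (adjusted p = 0.0741 to 0.21). Fos was not called without Neo replicate 1 or 2 or Fet replicate 2 or 3 (adjusted p = 0.0652 to 0.115). Jun was not called without Fet replicate 3 (adjusted p = 0.0605). Calls were also lost for Fos and Egr1 with no low-count filter (adjusted p = 0.084 to 0.153) and Egr1 with mitochondrially encoded genes left out (0.0515). Emb libraries, also freshly sorted tissue, averaged 96.1 CPM of Fos and 81.7 CPM of Jun. Other genes of rapid response, outside the list and named after their values were seen, kept their calls under all 16 settings. Ifrd1 (ENSMUSG00000001627, chromosome 12, 40201567 to 40248504), a transcriptional co-regulator, stood at 2209, 2021 and 1317 CPM in Neo libraries, against 138, 104 and 127 CPM in Fet libraries (log2 fold change 3.92 ± 0.31, adjusted p = 5.23e-06). Neat1, the long noncoding RNA that builds paraspeckles, stood at 561, 817 and 265 CPM in Neo libraries, against 12.1, 15.9 and 19.4 CPM in Fet libraries (log2 fold change 5.07 ± 0.49, adjusted p = 3.91e-05). The kinase Plk2 (2.69 ± 0.33), the pseudokinase Trib1 (3.16 ± 0.39) and the stress gene Gadd45g (4.32 ± 0.66) were higher as well. How long dissociation and sorting took in each group is not in the labels, and its part in these values was not tested.

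**Figure D4:**
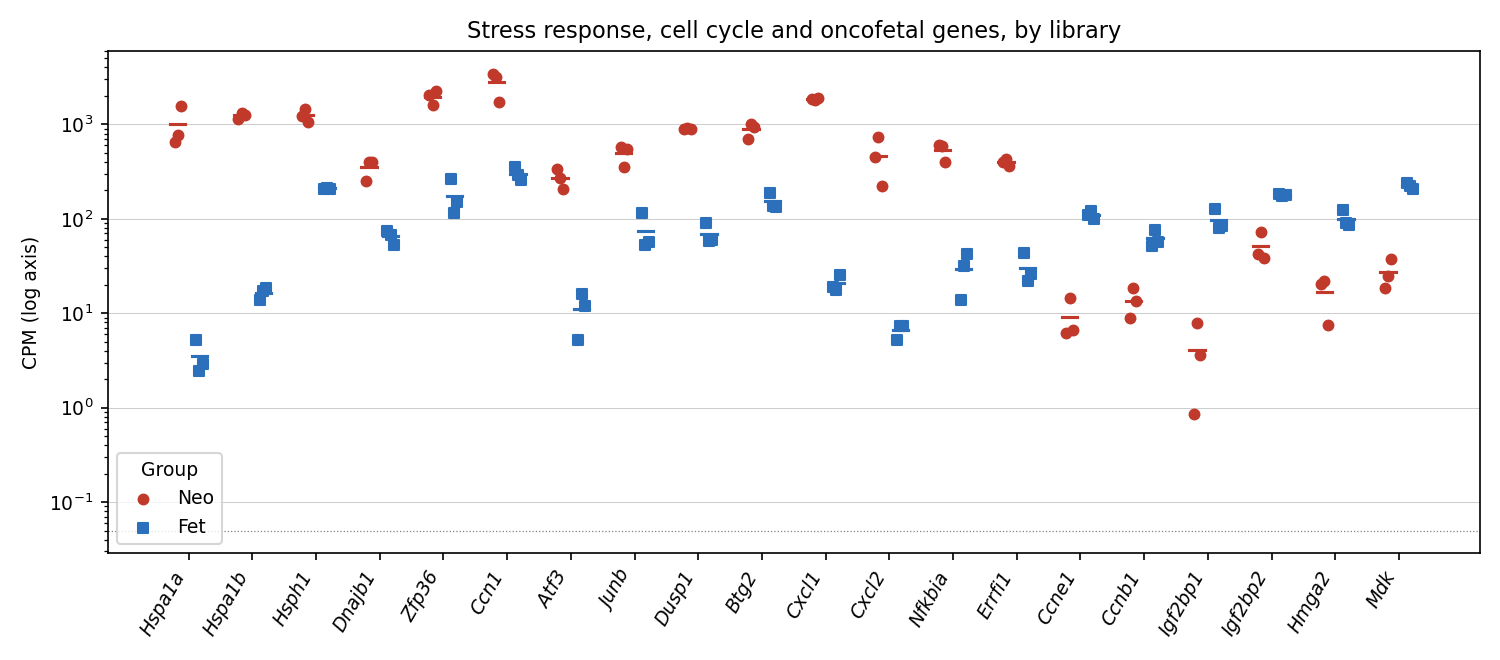
CPM (log axis) of heat shock, immediate early and inflammatory genes, from Hspa1a to Errfi1, and of cell cycle and oncofetal genes, from Ccne1 to Mdk, with 1 point per library, Neo circles left of Fet squares and a line at each group mean. The first 14 genes lie higher in all 3 Neo libraries and the last 6 lower.

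A heat shock gene, Hspa1a, had the smallest adjusted p of all genes tested. Of 25 tested, 8 were higher, beside 1.37% of all genes tested. When 1 library was left out 5 to 8 were called, fewest without Fet replicate 2 or 3. Hspa1a (ENSMUSG00000091971, chromosome 17, 34969190 to 34972156), an inducible HSP70 chaperone, stood at 656, 767 and 1577 CPM in Neo libraries, against 5.19, 2.47 and 2.92 CPM in Fet libraries (log2 fold change 8.4 ± 0.61, adjusted p = 2.88e-06). Its neighbour Hspa1b (ENSMUSG00000090877, chromosome 17, 34956436 to 34959238) stood at 1131, 1331 and 1271 CPM in Neo libraries, against 13.8, 17.1 and 18.5 CPM in Fet libraries (log2 fold change 6.2 ± 0.57, adjusted p = 2.69e-05). The genes are near-identical, so the split of reads between them is uncertain, but both were low in every Fet and high in every Neo library. The co-chaperone genes Hsph1 (2.58 ± 0.28) and Dnajb1 (2.44 ± 0.29) rose too and, like Hspa1a and Hspa1b, kept their calls under all 16 settings. The small heat shock protein gene Hspb1 stood at 55.8, 39.7 and 90.3 CPM in Neo libraries, against 0, 6.09 and 1.93 CPM in Fet libraries (log2 fold change 4.24 ± 0.8, adjusted p = 0.00974). Bag3, Dnaja1 and Hspa2 were the other called members. Hspa2 was not called without Neo replicate 1 or 2 or Fet replicate 1 or 2 or 3 (adjusted p = 0.0512 to 0.148). Bag3 was not called without Fet replicate 2 or 3 (adjusted p = 0.0781 to 0.0909). Dnaja1 was not called without Fet replicate 2 (adjusted p = 0.0587). Hspb1 was not called without Fet replicate 3 (adjusted p = 0.0781). The other 17 members were not called, and the list median was 0.43.

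The promoters of called heat shock genes are shown because a form of the short heat shock element, the letters GAANNTTC, could be looked for in them. It was chosen after the values were seen, and both strands read alike. In the 250 bases before the start, 4 of the 8 called members held it, against 2 of 10 members that were not called and had a promoter in the table. Of the promoters of all genes tested, 5.01% held it, and 6.79% of all in the table. The last 150 bases before the start follow, from RefSeq on GRCm38.p6, 5′ to 3′ on the gene's strand, with the match in capitals: Hspa1a at chr17:34972157-34972306 on the minus strand, Hspb1 at chr5:135887769-135887918 on the plus strand and Dnaja1 at chr4:40722318-40722467 on the plus strand. The promoter of Hspa1b, counted separately among the 4, differs from that of Hspa1a at 1 of the 150 bases.
Hspa1a: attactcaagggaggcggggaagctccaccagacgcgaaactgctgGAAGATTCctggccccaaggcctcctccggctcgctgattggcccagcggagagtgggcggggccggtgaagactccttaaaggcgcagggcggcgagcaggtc
Hspb1: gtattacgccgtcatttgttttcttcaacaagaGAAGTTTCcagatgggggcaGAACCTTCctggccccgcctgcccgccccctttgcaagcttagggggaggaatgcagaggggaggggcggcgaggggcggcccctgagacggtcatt
Dnaja1: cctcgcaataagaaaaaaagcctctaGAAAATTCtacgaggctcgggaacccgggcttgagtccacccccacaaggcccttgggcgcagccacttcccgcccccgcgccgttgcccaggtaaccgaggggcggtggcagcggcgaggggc
Hspb1 held 2 matches and the other 2 held 1 each, and the change in Dnaja1 (1.26 ± 0.22) was smaller than that in Hspa1a. Hsph1, Dnajb1, Bag3 and Hspa2 had no match of these letters in this window.

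Several chemokines and cytokines, the secreted signals that call in leukocytes, and their regulators were higher too. Of 29 tested, 7 passed, all higher, beside 1.37% called higher over all genes tested. In the list 23 lay wholly above Fet, beside 12.7% of all genes tested, and the median was 3.85. Cxcl2 (ENSMUSG00000058427, chromosome 5, 90903871 to 90905938), a chemokine that attracts neutrophils, stood at 446, 731 and 223 CPM in Neo libraries, against 5.19, 7.31 and 7.34 CPM in Fet libraries (log2 fold change 6.07 ± 0.58, adjusted p = 3.3e-05), and Cxcl1, its close relative, at 1872, 1819 and 1916 CPM in Neo libraries, against 19.02, 17.6 and 25.6 CPM in Fet libraries (log2 fold change 6.48 ± 1.22, adjusted p = 0.0136). Nfkbia, the inhibitor that NF-kappa B itself induces, stood at 607, 584 and 399 CPM in Neo libraries, against 13.8, 31.6 and 41.99 CPM in Fet libraries (log2 fold change 4.12 ± 0.5, adjusted p = 0.000361). In each of the 3 genes the Neo libraries were at least several times above the highest Fet library. The cytokine genes Il6 (4.85 ± 1.04) and Lif (5.13 ± 1.17), the prostaglandin synthase gene Ptgs2 (3.72 ± 0.79) and the NF-kappa B brake Tnfaip3 (3.58 ± 0.91) made up the rest. The NF-kappa B subunit gene Rel stood at 199.6, 209 and 184 CPM in Neo libraries, against 20.8, 16.6 and 17.04 CPM in Fet libraries (log2 fold change 3.46 ± 0.48, adjusted p = 0.00118). Cxcl2, Nfkbia and Rel kept their calls under all 16 settings. Lif and Tnfaip3 were not called whichever of the 6 libraries was left out (adjusted p = 0.0602 to 0.206). Il6 was not called without Neo replicate 2 or 3 or Fet replicate 1 or 2 or 3 (adjusted p = 0.052 to 0.134). Cxcl1 was not called without Fet replicate 1 or 2 or 3 (adjusted p = 0.0525 to 0.105). Ptgs2 was not called without Neo replicate 1 or Fet replicate 2 or 3 (adjusted p = 0.0701 to 0.124). Other settings ended the call of Cxcl1, Ptgs2 and Tnfaip3 with no low-count filter (adjusted p = 0.0611 to 0.101) and Tnfaip3 with mitochondrially encoded genes left out or with upper-quartile factors (0.0519 to 0.052). With 1 library left out, 2 to 4 of the list were called, fewest without Fet replicate 2 or 3.

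Their promoters were searched for a kappa B motif, the letters GGG, then any 3 bases, then TTCC, on either strand, also chosen after the values were seen. Matches were found in the 250 bases before the start of 5 of the 7 called genes, against 3 of 15 list members that were not called and had a promoter in the table. Of the promoters of all genes tested, 5.0% held a match. Windows of 150 bases from the same source are shown for 4 of the 5, with matches in capitals and overlapping matches merged into 1 stretch: Cxcl1 at chr5:90891095-90891244 on the plus strand, Cxcl2 at chr5:90903749-90903898 on the plus strand, Nfkbia at chr12:55492648-55492797 on the minus strand and Il6 at chr5:30012964-30013113 on the plus strand.
Cxcl1: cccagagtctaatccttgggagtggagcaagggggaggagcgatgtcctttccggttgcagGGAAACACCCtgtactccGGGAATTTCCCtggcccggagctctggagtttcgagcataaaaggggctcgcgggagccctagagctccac
Cxcl2: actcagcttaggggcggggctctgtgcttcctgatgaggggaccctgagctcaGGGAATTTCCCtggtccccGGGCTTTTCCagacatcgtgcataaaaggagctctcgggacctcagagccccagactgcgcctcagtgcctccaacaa
Nfkbia: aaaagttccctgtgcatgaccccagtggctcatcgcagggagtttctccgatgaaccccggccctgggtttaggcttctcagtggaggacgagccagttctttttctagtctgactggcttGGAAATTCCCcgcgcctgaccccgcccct
Il6: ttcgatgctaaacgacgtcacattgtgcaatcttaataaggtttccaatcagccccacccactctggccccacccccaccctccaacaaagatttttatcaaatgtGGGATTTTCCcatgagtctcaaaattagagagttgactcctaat
Cxcl1 and Cxcl2, both on chromosome 5, each held 2 separate stretches. A match is a run of letters and not a measured binding site, and its part in the changes was not tested.

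Of 24 glucocorticoid and thyroid hormone targets, 6 rose, beside 1.37% of all genes tested, with a median of 1.76. Errfi1, a feedback inhibitor of the EGF receptor, stood at 396, 429.9 and 363 CPM in Neo libraries, against 43.2, 21.9 and 26.02 CPM in Fet libraries (log2 fold change 3.76 ± 0.45, adjusted p = 0.000329) and kept its call under all 16 settings. The metal-binding Mt2 (5.78 ± 0.96), the C/EBP factor genes Cebpb (5.18 ± 0.91) and Cebpd (4.72 ± 1.13), the forkhead gene Foxo1 (2.1 ± 0.43) and the pyruvate dehydrogenase kinase gene Pdk4 (2.95 ± 0.7) were the others. Cebpd was not called whichever of the 6 libraries was left out (adjusted p = 0.0623 to 0.183). Pdk4 was not called without Neo replicate 1 or 2 or Fet replicate 1 or 2 or 3 (adjusted p = 0.0948 to 0.187). Foxo1 was not called without Neo replicate 2 or Fet replicate 1 or 2 or 3 (adjusted p = 0.0543 to 0.114). Mt2 and Cebpb were not called without Fet replicate 2 (adjusted p = 0.0548 to 0.0589). Further calls did not hold for Pdk4 with no low-count filter (adjusted p = 0.058). Several of these genes also answer to stress.

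Notch signalling holds muscle progenitors in an undifferentiated state. Of 23 Notch pathway genes, 3 were higher, beside 1.37% of all genes tested: the effectors Hes1 and Hey1 and the ligand Jag2. Hes1 stood at 452, 286 and 286 CPM in Neo libraries, against 44.96, 26.8 and 30.9 CPM in Fet libraries (log2 fold change 3.35 ± 0.45, adjusted p = 0.00093), and Emb libraries averaged 96.9 CPM. Hey1 stood at 124, 133 and 150.4 CPM in Neo libraries, against 25.9, 19.5 and 17.04 CPM in Fet libraries and Jag2 at 75.8, 73.6 and 106 CPM in Neo libraries, against 19.02, 14.7 and 18.1 CPM in Fet libraries. Hey1 and Jag2 were not called whichever of the 6 libraries was left out (adjusted p = 0.0543 to 0.185). The muscle-associated effector Heyl was not called and overlapped, at 0, 18.1 and 27.1 CPM in Neo libraries, against 22.5, 21.4 and 17.6 CPM in Fet libraries. Hey1 and Jag2 are also genes of arterial endothelium.

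Among inhibitors of the cell cycle, the antiproliferative gene Btg2 stood at 706, 1021 and 932 CPM in Neo libraries, against 188, 136 and 135 CPM in Fet libraries (log2 fold change 2.54 ± 0.39, adjusted p = 0.00279), and the CDK inhibitor genes Cdkn1b at 201, 338 and 217 CPM in Neo libraries, against 100.3, 77.8 and 89.05 CPM in Fet libraries and Cdkn1a at 114, 80.3 and 65.9 CPM in Neo libraries, against 32.9, 11.9 and 15.3 CPM in Fet libraries. Of 18 genes in the list these 3 passed, all higher, beside 1.37% of all genes tested. Cdkn1a was not called whichever of the 6 libraries was left out (adjusted p = 0.0509 to 0.228). Cdkn1b was not called without Neo replicate 2 or Fet replicate 2 or 3 (adjusted p = 0.0976 to 0.135). The call also ended for Cdkn1a with mitochondrially encoded genes left out or with upper-quartile factors (adjusted p = 0.0501 to 0.0533). The fetal CDK inhibitor gene Cdkn1c lay below Fet in every Neo library, at 154, 152 and 104 CPM in Neo libraries, against 738, 943 and 811 CPM in Fet libraries, and was not called (adjusted p = 0.174). In the TGF-beta and BMP list, 2 of 38 passed, both higher, beside 1.37% of all genes tested. Among them was the inhibitory Smad7 (3.2 ± 0.51), which kept its call under all 16 settings. In the IGF list, 2 of 22 passed, the binding protein genes Igfbp7 and Igfbp6. Igfbp7 stood at 382, 175 and 344 CPM in Neo libraries, against 12.1, 10.7 and 13.9 CPM in Fet libraries (log2 fold change 4.62 ± 0.63, adjusted p = 0.000994) and is also abundant in vessels. Igfbp6 was not called without Neo replicate 1 or Fet replicate 2 or 3 (adjusted p = 0.107 to 0.113).

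Matrix genes took a large share of the Neo counts. The summed level of 39 collagen and matrix genes was 154863, 61925 and 122248 CPM in Neo libraries, against 55379, 54241 and 50996 CPM in Fet libraries. Col1a1, the main fibrillar collagen chain, stood at 49100, 15980 and 39030 CPM in Neo libraries, against 15930, 10710 and 10040 CPM in Fet libraries and was not called (adjusted p = 0.499). Of the list, 3 were called higher and 1 lower, beside 1.37% and 1.0% of all genes tested. Of the 39 genes 16 lay wholly above Fet and 3 wholly below, beside 12.7% and 15.3% of all genes tested. Tnxb, a tenascin of loose connective tissue, stood at 570.1, 179 and 336 CPM in Neo libraries, against 55.3, 34.02 and 44.5 CPM in Fet libraries (log2 fold change 3.04 ± 0.46, adjusted p = 0.00238). Sparc, a collagen-binding glycoprotein, rose by 2.17 ± 0.5 and Aspn, a small proteoglycan, by 1.82 ± 0.45, and Fbln1, a fibulin, fell (-1.32 ± 0.32). Sparc, Aspn and Fbln1 were not called whichever of the 6 libraries was left out (adjusted p = 0.0512 to 0.192). Calls were also lost for Sparc and Fbln1 with no low-count filter (adjusted p = 0.087 to 0.139) and Fbln1 with RLE size factors (0.0524). Of 28 fibroblast markers, Mgp rose and Mme fell, and Pdgfra stood at 254, 103 and 186 CPM in Neo libraries, against 277, 338 and 333 CPM in Fet libraries with no call. The basement membrane proteoglycan gene Hspg2 stood at 1214, 814 and 1855 CPM in Neo libraries, against 538, 375 and 370 CPM in Fet libraries, the only 1 of 23 basement membrane genes to pass (adjusted p = 0.0138). Mme was not called without Neo replicate 1 or 2 or 3 or Fet replicate 2 or 3 (adjusted p = 0.09 to 0.203). Hspg2 was not called without Neo replicate 3 or Fet replicate 2 or 3 (adjusted p = 0.0543 to 0.101). Mgp was not called without Neo replicate 2 or Fet replicate 2 or 3 (adjusted p = 0.0603 to 0.0909). Other settings ended the call of Mme with RLE size factors (adjusted p = 0.0515). In the dystrophin and membrane repair list, the repair gene Anxa1 (2.64 ± 0.45) and dysferlin, Dysf (2.73 ± 0.66), were higher, 2 of 24. Dysf was not called whichever of the 6 libraries was left out (adjusted p = 0.0645 to 0.16). Further calls did not hold for Dysf with mitochondrially encoded genes left out (adjusted p = 0.054).

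Several cell cycle genes were lower in Neo. Of 28 S phase genes 3 fell, of 30 mitosis genes 8 fell, and none rose, with medians of -1.02 and -1.13. Over all genes tested 1.0% were called lower. Ccne1 (ENSMUSG00000002068, chromosome 7, 38097984 to 38107534), the cyclin that starts S phase, stood at 6.22, 14.52 and 6.62 CPM in Neo libraries, against 109, 120 and 98.7 CPM in Fet libraries (log2 fold change -3.58 ± 0.39, adjusted p = 0.000138). Skp2, which marks the CDK inhibitor encoded by Cdkn1b for destruction, stood at 11.96, 34.8 and 31.3 CPM in Neo libraries, against 156, 203 and 186 CPM in Fet libraries (log2 fold change -2.81 ± 0.4, adjusted p = 0.00124). Ccnb1, the mitotic cyclin, stood at 8.91, 18.3 and 13.5 CPM in Neo libraries, against 51.9, 76.8 and 57.2 CPM in Fet libraries (log2 fold change -2.21 ± 0.41, adjusted p = 0.00857). For Ccne1, Skp2 and Ccnb1 all Neo libraries were below all Fet libraries. Ccne1 and Skp2 kept their calls under all 16 settings, as did Ckap5, a microtubule polymerase of the spindle (-1.74 ± 0.3). The topoisomerase Top2a stood at 226, 219 and 148 CPM in Neo libraries, against 424, 782 and 618 CPM in Fet libraries (log2 fold change -1.62 ± 0.38, adjusted p = 0.0343), with no overlap. Bub1, Cdk1, Kif2c and Tpx2 fell by 1.37 to 2.12 on the log2 scale. Bub1, Cdk1, Kif2c and Tpx2 were not called whichever of the 6 libraries was left out (adjusted p = 0.0543 to 0.198). Top2a was not called without Neo replicate 1 or 2 or 3 or Fet replicate 2 or 3 (adjusted p = 0.0874 to 0.179). Ccnb1 was not called without Fet replicate 2 (adjusted p = 0.0572). The call also ended for Bub1, Cdk1 and Kif2c with RLE size factors (adjusted p = 0.0534 to 0.0634) and Kif2c in a fit of the 6 libraries alone (0.0504). The 3 S phase genes were Ccne1, Prim1 and Tyms, and 1 to 3 of the list were called with 1 library left out, fewest without Neo replicate 1 or 2 or Fet replicate 2 or 3. With 1 library left out, 0 to 4 mitosis genes were called, none without Fet replicate 2, and RLE size factors gave 4. The proliferation marker Mki67 stood at 269, 366 and 256 CPM in Neo libraries, against 330.3, 829.6 and 637 CPM in Fet libraries, where the groups overlapped, and was not called (adjusted p = 0.129).

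Some oncofetal genes, active in the embryo and in many tumours and shut off after birth, were lower. Of 23 tested, 6 fell, beside 1.0% of all genes tested, none rose, and the median was -0.87. The RNA-binding proteins of the Igf2bp family fell together. Igf2bp1 (ENSMUSG00000013415, chromosome 11, 95957163 to 96005940) stood at 0.849, 7.83 and 3.61 CPM in Neo libraries, against 128, 79.8 and 84.1 CPM in Fet libraries (log2 fold change -4.59 ± 0.61, adjusted p = 0.000798), with a mean of 276 CPM in Emb. Igf2bp2 stood at 42.02, 73.1 and 38.2 CPM in Neo libraries, against 183, 174 and 177 CPM in Fet libraries (log2 fold change -1.8 ± 0.29, adjusted p = 0.00333), with 406 CPM in Emb, and Igf2bp3 fell by 1.99 ± 0.35 on the log2 scale. Hmga2, an architectural chromatin protein of growing tissue, stood at 20.5, 21.7 and 7.52 CPM in Neo libraries, against 124, 89.6 and 86.3 CPM in Fet libraries (log2 fold change -2.56 ± 0.54, adjusted p = 0.0186), against a mean of 1105 CPM in Emb. Igf2bp1 and Igf2bp2 kept their calls under all 16 settings. Hmga2 was not called whichever of the 6 libraries was left out (adjusted p = 0.0577 to 0.0665). Crabp1 was not called without Neo replicate 1 or 2 or 3 or Fet replicate 2 or 3 (adjusted p = 0.0869 to 0.115). Crabp2 was not called without Neo replicate 2 or Fet replicate 2 or 3 (adjusted p = 0.0586 to 0.0605). Igf2bp3 was not called without Fet replicate 2 (adjusted p = 0.0526). Calls were also lost for Hmga2 with no low-count filter (adjusted p = 0.0957). With 1 library left out, 2 to 5 of the list were called, fewest without Fet replicate 2.

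Several genes of the embryo outside that list fell under every setting. Mdk (ENSMUSG00000027239, chromosome 2, 91929805 to 91932297), the growth factor midkine, stood at 18.4, 24.97 and 37.9 CPM in Neo libraries, against 239, 225 and 206 CPM in Fet libraries (log2 fold change -3.05 ± 0.36, adjusted p = 0.000329). Mex3a, an RNA-binding protein of progenitor cells, stood at 61.9, 47.5 and 74.02 CPM in Neo libraries, against 208, 213 and 221 CPM in Fet libraries (log2 fold change -1.81 ± 0.28, adjusted p = 0.00283). Slc38a4, an imprinted amino acid transporter gene and the only 1 of 34 imprinted genes to pass, stood at 95.4, 73.6 and 68.3 CPM in Neo libraries, against 549.9, 324 and 324 CPM in Fet libraries (log2 fold change -2.33 ± 0.37, adjusted p = 0.00361). Over all genes tested 2.37% passed, and 1.0% were called lower. The histone variant gene H2afy2 (-2.8 ± 0.49) and the Rag GTPase gene Rragd (-2.91 ± 0.43), part of amino acid sensing, fell too. In the retinoic acid list 3 of 19 fell, the binding protein genes Crabp1 and Crabp2, shared with the oncofetal list, and the retinol receptor gene Stra6. Crabp1 stood at 1.56, 2.29 and 0.301 CPM in Neo libraries, against 41.5, 104 and 82.6 CPM in Fet libraries (log2 fold change -5.73 ± 1.29, adjusted p = 0.0272), and Stra6 was at 0 counts in all Neo libraries and at 13.8, 9.44 and 10.6 CPM in Fet libraries, at least 88.8-fold lower. The other 16 members of the list were not called.

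Other lower genes encode transcription factors and neural proteins. Zic1 (ENSMUSG00000032368, chromosome 9, 91358058 to 91365810), a zinc finger factor of the dorsal neural tube and somites, stood at 0.778, 1.47 and 2.41 CPM in Neo libraries, against 104, 104 and 129 CPM in Fet libraries (log2 fold change -6.32 ± 1.02, adjusted p = 0.00446) and averaged 558 CPM in Emb. Its neighbour Zic4 stood at 0.212, 0.326 and 0.301 CPM in Neo libraries, against 19.02, 16.97 and 22.4 CPM in Fet libraries (log2 fold change -6.14 ± 1.27, adjusted p = 0.0166). Both were close to 0 in all Neo libraries. Of 26 Schwann cell and neural markers, 3 fell, beside 1.0% of all genes tested. They were the neuronal RNA-binding gene Elavl4 (-6.74 ± 1.33), the neuregulin receptor gene Erbb3 (-4.26 ± 0.88) and the neuronal tubulin gene Tubb3 (-5.78 ± 1.41). Schwann cells and some muscle progenitors share Erbb3. Elavl4 stood at 0.283, 0 and 0 CPM in Neo libraries, against 17.3, 11.8 and 18.9 CPM in Fet libraries, and without Neo replicate 1 its fold change was -11.5. The list's summed level was 503, 748 and 468 CPM in Neo libraries, against 612, 600 and 702 CPM in Fet libraries, and those of the groups overlapped. Tubb3 was not called whichever of the 6 libraries was left out (adjusted p = 0.0695 to 0.149). Zic4 was not called without Neo replicate 1 or 2 or 3 or Fet replicate 2 or 3 (adjusted p = 0.0547 to 0.0805). Erbb3 was not called without Neo replicate 1 or 3 or Fet replicate 2 or 3 (adjusted p = 0.0515 to 0.0755). Elavl4 was not called without Neo replicate 2 (adjusted p = 0.0668). The kinase gene Rps6ka6 stood at 0.212, 3.59 and 0.301 CPM in Neo libraries, against 91.7, 54.5 and 47.8 CPM in Fet libraries (log2 fold change -5.55 ± 0.92, adjusted p = 0.00441) and Tmeff1, a transmembrane protein of neural tissue, at 11.5, 40.1 and 11.7 CPM in Neo libraries, against 109, 85.3 and 94.2 CPM in Fet libraries (log2 fold change -2.18 ± 0.4, adjusted p = 0.00779), both lower under every setting. The part of neural cells in the Fet values was not tested.

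Contractile genes split. Of 45 sarcomere and excitation-contraction genes 4 were lower and 1 higher, beside 1.0% and 1.37% of all genes tested, with a median of -0.89. Without the genes at 0 counts in a whole group, 6 in Neo and 1 in Fet, the median was -0.08. The list's summed level overlapped, at 2540, 2674 and 2028 CPM in Neo libraries, against 2281, 2865 and 2566 CPM in Fet libraries. Cardiac actin, Actc1, the main sarcomeric actin of immature muscle, stood at 0.212, 6.37 and 1.805 CPM in Neo libraries, against 258, 272 and 225 CPM in Fet libraries (log2 fold change -6.53 ± 1.4, adjusted p = 0.0266). Skeletal actin, Acta1, which takes over with maturation, stood at 531, 536 and 177 CPM in Neo libraries, against 48.4, 18.2 and 16.5 CPM in Fet libraries (log2 fold change 4.01 ± 0.98, adjusted p = 0.0441). Actc1 was lower and Acta1 higher in every Neo library, though the actins are near-identical in sequence and shared reads make the split uncertain. Neb, the thin filament ruler nebulin, stood at 0.212, 0 and 3.01 CPM in Neo libraries, against 48.4, 114 and 58.9 CPM in Fet libraries (log2 fold change -6.36 ± 1.33, adjusted p = 0.0177), and the calcium release channel gene Ryr1 at 13.3, 10.9 and 4.21 CPM in Neo libraries, against 74.4, 70.2 and 63.6 CPM in Fet libraries. Chrng, the fetal subunit of the acetylcholine receptor, was at 0 counts in all Neo libraries and at 12.1, 7.402 and 4.92 CPM in Fet libraries, at least 64.01-fold lower. Ryr1 and Chrng were not called whichever of the 6 libraries was left out (adjusted p = 0.0601 to 0.114). Acta1 was not called without Neo replicate 1 or 2 or Fet replicate 1 or 2 or 3 (adjusted p = 0.0753 to 0.212). Actc1 was not called without Neo replicate 1 or 3 or Fet replicate 2 or 3 (adjusted p = 0.064 to 0.0807). Neb was not called without Neo replicate 1 or 2 or Fet replicate 2 or 3 (adjusted p = 0.0537 to 0.0967). Other settings ended the call of Actc1 and Acta1 with no low-count filter (adjusted p = 0.104 to 0.163). Without Neo replicate 1, Fet replicate 2 or Fet replicate 3, none of the list was called lower. Of 13 myosin heavy chain genes the nonmuscle Myh9 rose and Myh10 fell, and the embryonic isoform Myh3 stood at 19.2, 3.92 and 3.31 CPM in Neo libraries, against 138, 234 and 187 CPM in Fet libraries, apart but not called (adjusted p = 0.0972). Myh9 was not called whichever of the 6 libraries was left out (adjusted p = 0.0655 to 0.154). Myh10 was not called without Neo replicate 2 or Fet replicate 2 (adjusted p = 0.0508 to 0.0572). Further calls did not hold for Myh9 with mitochondrially encoded genes left out (adjusted p = 0.0916).

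Some of the strongest changes belonged to no list. Kif26b (ENSMUSG00000026494, chromosome 1, 178529125 to 178939200), a kinesin-like protein of embryonic limb and kidney, was at 0 counts in all Neo libraries and at 19.02, 31.2 and 30.1 CPM in Fet libraries, at least 210.4-fold lower. Bex4, an X-linked gene, was also at 0 in Neo and at 24.2, 25.2 and 20.2 CPM in Fet, at least 183-fold lower. Mif, a cytokine, was at 0 in Neo and at 12.1, 28.1 and 23.9 CPM in Fet, at least 168-fold lower, and Ahcy, an enzyme of methyl group metabolism, stood at 12.5, 0.163 and 1.805 CPM in Neo libraries, against 252, 135 and 133 CPM in Fet libraries. Mif and Ahcy have near-identical pseudogene copies, so their counts depend on how shared reads were assigned. Fndc3c1 stood at 0.778, 0.816 and 1.805 CPM in Neo libraries, against 25.9, 45.3 and 33.1 CPM in Fet libraries, Syt13 at 0, 0 and 0.602 CPM in Neo libraries, against 20.8, 27.4 and 29.8 CPM in Fet libraries and the noncoding host gene Snhg11 at 0.141, 0.163 and 0.301 CPM in Neo libraries, against 25.9, 40.5 and 66.02 CPM in Fet libraries. Snhg11 was not called whichever of the 6 libraries was left out (adjusted p = 0.058 to 0.135). Bex4 was not called without Neo replicate 1 or 2 or 3 or Fet replicate 2 or 3 (adjusted p = 0.0537 to 0.0957). Syt13 was not called without Neo replicate 1 or 2 or Fet replicate 2 or 3 (adjusted p = 0.0515 to 0.0629). The call also ended for Ahcy and Snhg11 with no low-count filter (adjusted p = 0.0646 to 0.143). The log2 fold change of Syt13 was -7.6 ± 1.52 with all libraries and -12.2 without Neo replicate 3, and that of Ahcy was -5.04 ± 0.94 and -7.70 without Neo replicate 1. Among higher genes, the purine enzyme gene Gda stood at 118, 143 and 80.9 CPM in Neo libraries, against 1.73, 1.19 and 0.356 CPM in Fet libraries (log2 fold change 6.99 ± 1.13, adjusted p = 0.0038), and the tetraspanin gene Cd9 at 1211, 1288 and 771 CPM in Neo libraries, against 111, 65.8 and 70.7 CPM in Fet libraries. Gda and Cd9 kept their calls under all 16 settings.

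Some energy genes were called, beside 2.37% of all genes tested. Of 46 nuclear-encoded genes of oxidative phosphorylation 1 was higher and 3 were lower, and of 36 glycolysis and hypoxia genes 3 were higher. With 1 library left out these counts were 0 to 1, 0 to 2 and 0 to 2, and without Neo replicate 1 or 2 or Fet replicate 2 or 3 all of them were 0. Mitochondrially encoded genes split: mt-Co1 stood at 35120, 63810 and 38080 CPM in Neo libraries, against 10200, 11540 and 15390 CPM in Fet libraries (log2 fold change 1.88 ± 0.25, adjusted p = 0.000881), and the ribosomal RNAs mt-Rnr1 and mt-Rnr2 were also higher. Another 5 of the 15 were called lower although the groups overlapped. Of these, mt-Atp6 stood at 9.48, 11.4 and 13.2 CPM in Neo libraries, against 1390, 4247 and 2.28 CPM in Fet libraries and mt-Co3 at 48.03, 63.3 and 46.6 CPM in Neo libraries, against 2694, 5457 and 5.49 CPM in Fet libraries. These genes were high in Fet replicates 1 and 2, and in Fet replicate 3 they lay below every Neo library, so these calls follow a split within Fet. mt-Co3 was not called without Neo replicate 1 or 2 or 3 or Fet replicate 1 or 2 (adjusted p = 0.0792 to 0.183). mt-Rnr1 and mt-Rnr2 were not called without Neo replicate 1 or 2 or Fet replicate 1 or 2 or 3 (adjusted p = 0.0529 to 0.133). mt-Atp6 was not called without Neo replicate 1 or 2 or 3 or Fet replicate 2 (adjusted p = 0.0682 to 0.11). Calls were also lost for mt-Atp6 and mt-Co3 in a fit of the 6 libraries alone (adjusted p = 0.0949 to 0.129), mt-Atp6, mt-Co3 and mt-Rnr2 with no low-count filter (0.103 to 0.158) and mt-Co3 on thinned counts of the 6 libraries or without iPax7 replicate 1 (0.0581 to 0.177).

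No member was called in 8 of the 48 lists. These were Hox genes (37 tested), cytosolic ribosomal proteins (53), the Wnt pathway (38), limb and body wall patterning (25), DNA methylation and Polycomb enzymes (25), cholesterol synthesis (24), circadian clock genes (19) and the fetal myogenic programme (12). Of their 233 tested members edgeR called 0, DESeq2 called 7, and for 25 the edgeR p before adjustment was under 0.05. Over all 17571 genes tested edgeR called 416, and 3426 had a p before adjustment under 0.05. DESeq2 called 1876 of 29309. The clock genes had a median of 1.48, and 8 of the 19 lay wholly above Fet, against 12.7% of all genes tested. In the fetal programme the nuclear factor gene Nfix, which drives the switch to fetal muscle, stood at 249.8, 254 and 329 CPM in Neo libraries, against 161, 143 and 172 CPM in Fet libraries with no call (adjusted p = 0.678). Of the 416 called genes, 88 higher and 39 lower ones belonged to at least 1 list.

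**Figure D5:**
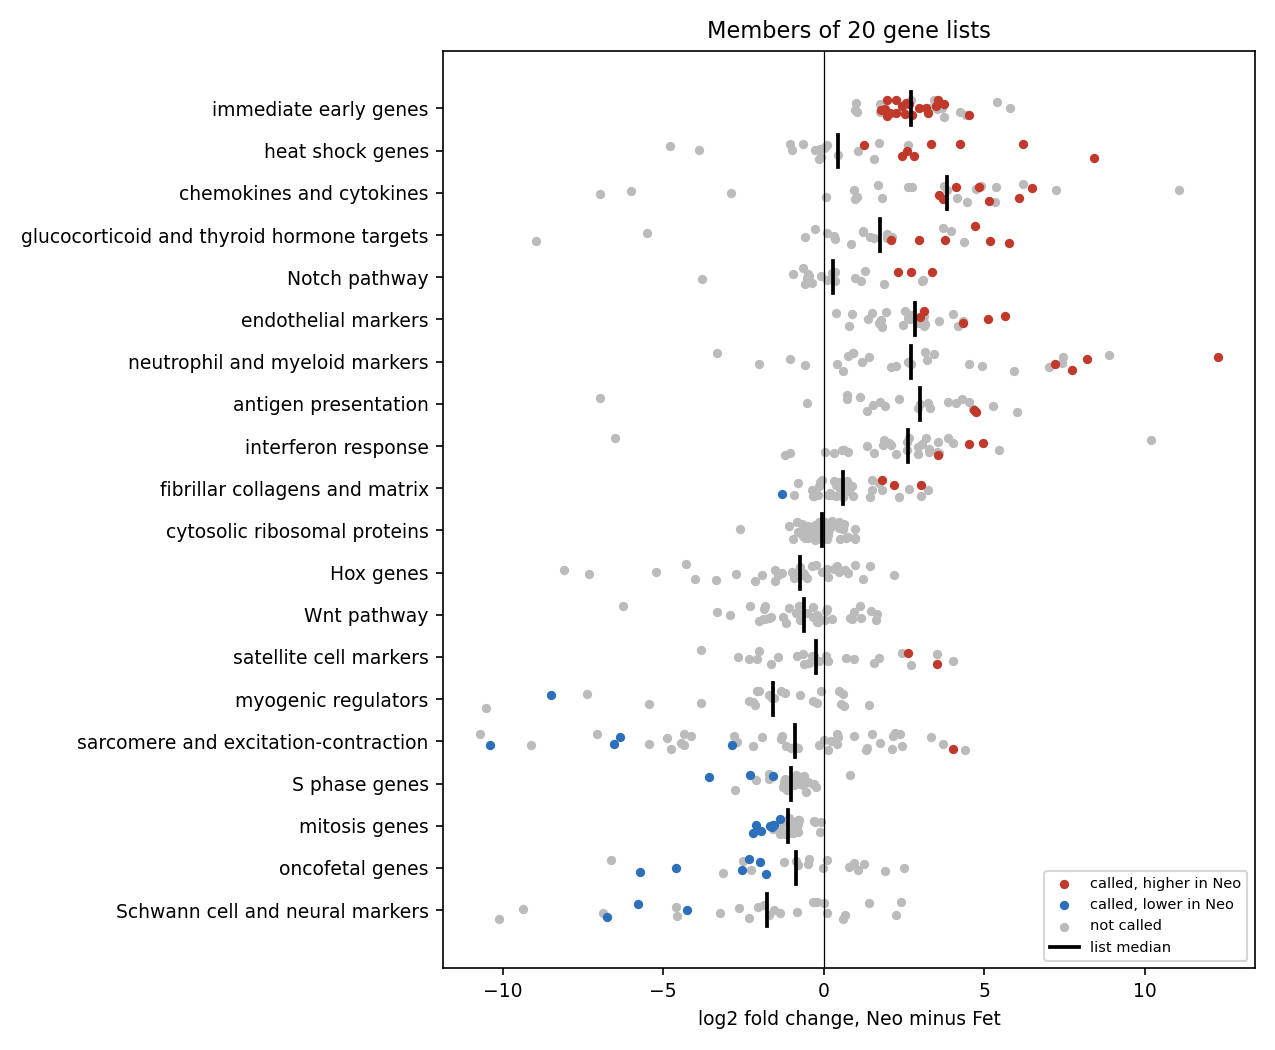
Log2 fold change (Neo minus Fet, x axis) of each tested member of 20 gene lists (y axis), 1 point per gene, red where called higher in Neo, blue where called lower, grey where not called, with a black line at the list median. The immediate early genes lie wholly to the right of 0, with a median of 2.72, and the S phase and mitosis genes have medians of -1.02 and -1.13.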

How the data were processed

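The authors deposited counts of reads per gene for each bulk library, as whole numbers that were not normalised. Base calling with CASAVA 1.8, alignment with HISAT2 2.0.2 to mm10 and counting with featureCounts 1.4.6 are named in the submitters' processing notes. Which annotation was used, whether strand was counted and how multi-mapped reads were treated are not given in the sources used here, so genes with near-identical copies or antisense partners are uncertain. Of 47728 gene IDs, 47309 were matched to GENCODE M21 for symbols and positions on GRCm38.

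Counts of all 15 bulk libraries were fitted with 1 mean per group in edgeR 4.0.16 (R 4.3.3) with low-count filtering (filterByExpr), TMM scaling and robust quasi-likelihood dispersions, so that all groups shared 1 estimate of spread. Neo minus Fet was tested and adjusted by Benjamini-Hochberg over 17571 genes, at a threshold of 0.05. The procedure was tested on simulated data. Standard errors were taken from the fold change and its F statistic. For a gene at 0 in a whole group, the fold is a bound against a floor of 3 counts over the group. Genes were named as the 12 largest called changes each way with a mean of at least 20 CPM in either group. Also named were up to 5 members of each of 48 lists by smallest adjusted p, called or not. Genes called under all 16 alternatives were added, and others were chosen after their values were seen. Some genes that met these rules are not reported here. The members and lists were chosen with earlier results of these data known. Alternatives were RLE and upper-quartile factors, no filter, the 6 libraries alone, thinned counts, mitochondrial genes left out, a replicate block and DESeq2 1.42.0. In further alternatives each of the 6 Neo and Fet libraries and iPax7 replicate 1 was left out in turn. No Emb or iPax3 library and no other iPax7 library was left out. Libraries of the same number did not deviate together (correlations 0.0442, -0.0048 and 0.0414), and numbers were not taken as pairs. Depth was 516504 to 32017618 counts per library in the 6 Neo and Fet libraries. Figures were drawn with matplotlib 3.10.9.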

Additional observations from a re-analysis of the deposited data

How the results depend on the processing

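The number of genes called, 416 (240 higher, 176 lower), was 86 to 337 with 1 of the 6 libraries left out (60 to 168 higher, 26 to 169 lower). It was 1246 (901 higher, 345 lower) in a fit of the 6 libraries alone, 1189 (803, 386) on thinned counts, 751 (380, 371) without iPax7 replicate 1 and 1876 (879, 997) in DESeq2, and it was 404 (203, 201) with mitochondrially encoded genes left out. RLE factors gave 430 (289, 141), upper-quartile factors 422 (236, 186) and no filter 427 (236, 191). With the replicate block, it was 263 (158, 105) in 15 libraries and 968 (712, 256) in 6, and the numbers pair samples only in name. Itga7, at -0.15 and not called, ranged over -0.83 to 0.30 with 1 library left out, positive without Neo replicate 1 (0.30) and without Fet replicate 1 (0.08), and the cause was not tested. Over the named genes and all alternatives, 4427 values kept their direction and side of the threshold, 656 lost the call, 359 gained one and 2 reversed. The named genes include the 67 chosen because they kept their call under all 16 alternatives, so this tally leans towards kept values. Fet replicate 1 had the fewest counts of the 6 libraries, 516504.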

Other observations

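Globins did not pass the test in either direction. The embryonic globin gene Hbb-y stood at 0, 0 and 1.504 CPM in Neo libraries, against 1.73, 40.5 and 47.3 CPM in Fet libraries, and the adult gene Hbb-bs at 17.1, 101 and 177 CPM in Neo libraries, against 12.1, 13.98 and 6.84 CPM in Fet libraries. The embryonic chain was highest in Fet replicates 2 and 3 and the adult one in Neo replicates 2 and 3. Krt8, a keratin of simple epithelia, fell (log2 fold change -3.5 ± 0.79, adjusted p = 0.0271), and Mcam, a surface protein of pericytes and endothelium, rose (log2 fold change 1.58 ± 0.37, adjusted p = 0.0343). Mcam was not called whichever of the 6 libraries was left out (adjusted p = 0.0619 to 0.183). Krt8 was not called without Neo replicate 1 or 2 or 3 or Fet replicate 2 or 3 (adjusted p = 0.0504 to 0.149). Other settings ended the call of Krt8 in a fit of the 6 libraries alone (adjusted p = 0.301).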
